A study of Mus musculus with 6 samples.

Results

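The genes described here are those of glutathione, thioredoxin and NRF2 antioxidant defence, taken from a comparison of lungs of leptin-treated and saline-treated mice. A probe set, the group of short probes that measures 1 transcript on these arrays, was a member if its only annotated symbol was a numbered alpha, mu, pi, theta, kappa, omega or zeta glutathione S-transferase, a microsomal glutathione S-transferase, a glutathione peroxidase, a peroxiredoxin, Sod1, Sod2 or Sod3, or began with Txn, or was Gclc, Gclm, Gsr, Gss, Nqo1, Hmox1, Srxn1, Cat, Nfe2l2 or Keap1. This gave 104 probe sets of 60 genes out of 22626 probe sets on the array. Probe sets with exactly 1 symbol represent 12393 genes in all. Another 6 probe sets carry a matching symbol together with others, 5 of them for Prdx1, and were not members. The Txn symbols also bring in proteins whose thioredoxin fold serves other work, such as Txnl4a, a component of the spliceosome.

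All animals were leptin-deficient ob/ob females of the strain B6.V-Lepob/J, aged about 1 month, so the mutation of the leptin gene is shared by both groups. Total RNA from lung was measured on Affymetrix Mouse 430A arrays, 3 after leptin and 3 after saline, with 1 animal per array per the labels. The sources used here do not state dose, route or duration of treatment. The question is how the lung's transcripts respond to replacement of leptin. Sftpc, the surfactant protein of alveolar type II cells, read between 23964 and 29732 on 5 arrays and 4087 on saline replicate 1.

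Saline replicate 1 stood apart and was kept out of the main comparison. Its log2 values for all probe sets correlated with the other arrays at 0.438 to 0.447 (Pearson's r over probe sets, which are no replicates of each other), against 0.973 to 0.978 among the other 5. Among the member probe sets it read below all 5 other arrays in 52, above all of them in 41 and within their range in 11. It was thus outside their range in 89.4% of members, close to the 88.4% of all probe sets. The main values below therefore compare 3 leptin arrays with saline replicates 2 and 3, and values with all 6 arrays are given beside them.

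**Figure D1:**
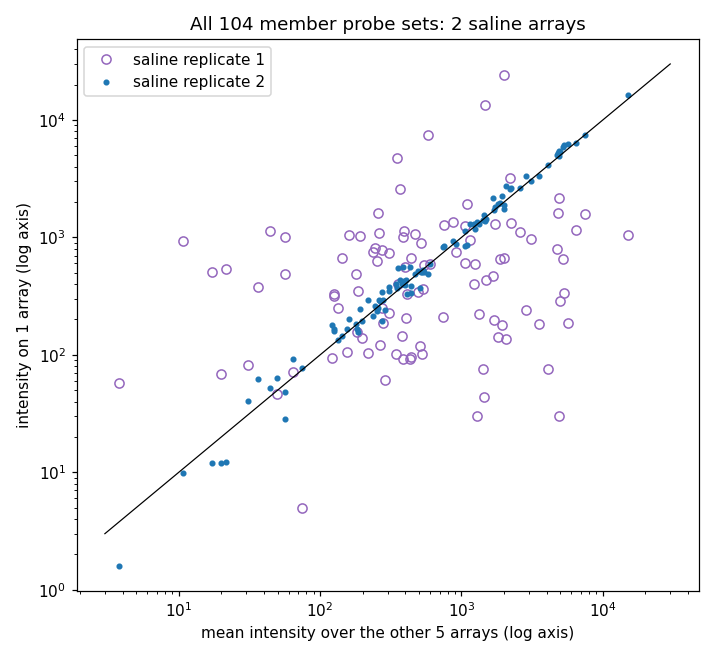
Intensity of all 104 member probe sets on saline replicate 1 (open circles) and saline replicate 2 (dots) against their mean over the 5 arrays other than saline replicate 1, which includes saline replicate 2; both axes are logarithmic and the line marks equality. Saline replicate 2 follows the line, whereas saline replicate 1 reads below all 5 other arrays in 52 probe sets and above all of them in 41. Together these are 89.4% of members, against 88.4% of all probe sets on the array.

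Glutathione is a small peptide that donates electrons to peroxidases, which reduce hydrogen peroxide and lipid peroxides, and to S-transferases, which attach it to reactive compounds. Thioredoxin does similar work on protein disulfides and on peroxiredoxins. NRF2, encoded by Nfe2l2, is the transcription factor that binds antioxidant response elements and drives many of these genes, and KEAP1 holds it in check by presenting it for degradation. The lung meets oxygen and inhaled compounds directly, and its club cells and alveolar lining are known for high levels of these enzymes.

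The antioxidant genes leaned to lower values in the leptin-treated lungs, but no member passed the adjusted threshold. Of the 104 member probe sets, 91 exceeded the filter on dim probe sets (the dimmest 30% were not tested), and these represent 57 of the 60 genes. A log2 difference below 0 (leptin minus saline) was found in 68 of the 91, or 74.7%, against 49.7% of all 15838 probe sets tested. Their median difference was -0.091 on the log2 scale, against 0.00124 for all probe sets, and it was -0.054, with 58.2% below 0, when saline replicate 2 was also left out. Represented by its brightest tested probe set, 46 of 57 genes lay below 0 and 11 above. These shares describe the genes and carry no test, since the members are not independent of each other. In whole lung, fewer cells of a type and less RNA per cell cannot be told apart.

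By limma, 0 of the 91 members passed the Benjamini-Hochberg threshold of 0.05, where 0.0442% of all tested probe sets passed. At an unadjusted p under 0.05 there were 10 of 91 members, where 4.6% of all probe sets did so. The 8 lower ones made up 8.79% of the tested members against a background of 1.98%, and the 2 higher ones 2.2% against 2.61%. The lower count was 5 without leptin replicate 1 (background 2.38%) and 5 without saline replicate 3 (background 1.62%). The higher count was 1 without leptin replicate 1, saline replicate 2 or saline replicate 3 (backgrounds 2.37%, 2.26% and 2.52%). With the replicate number as a block, 10 were lower (background 3.66%) and 2 higher (background 3.55%), and with all 6 arrays 0 (background 0.341%). Without the block, the lower probe sets belong to Gclc (2 probe sets), Gstt2, Nqo1, Gstp1, Gstm1, Gstm3 and Gsr, and the higher ones to Gclm and Sod3. Groups did not overlap, with all leptin values below both saline values, in 19 members (20.9%, against 9.66% of all probe sets), and in the other direction in 7 (7.69%, against 9.92%).

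With all 6 arrays the balance turned. No member reached an unadjusted p under 0.05 (0 of 90 tested, against 0.385% of all probe sets) or the adjusted threshold (background 0.0%), and 41.1% of members lay below 0 against 48.7% of all probe sets. Groups did not overlap in 5 members in the higher direction (5.56%, against 5.0% of all probe sets) and in 6 in the lower (6.67%, against 4.1%). The members' median was 0.147 and that of all tested probe sets 0.0219. Over the 57 genes, the median deviation from the 5-array mean was -1.48 for saline replicate 1. The 3 leptin arrays lay at -0.0764, -0.00697 and -0.0656, and saline replicates 2 and 3 at 0.0923 and 0.0265, so the groups did not overlap on this measure. The distance between the nearest arrays of opposite groups was smaller than the range within either group.

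**Figure D2:**
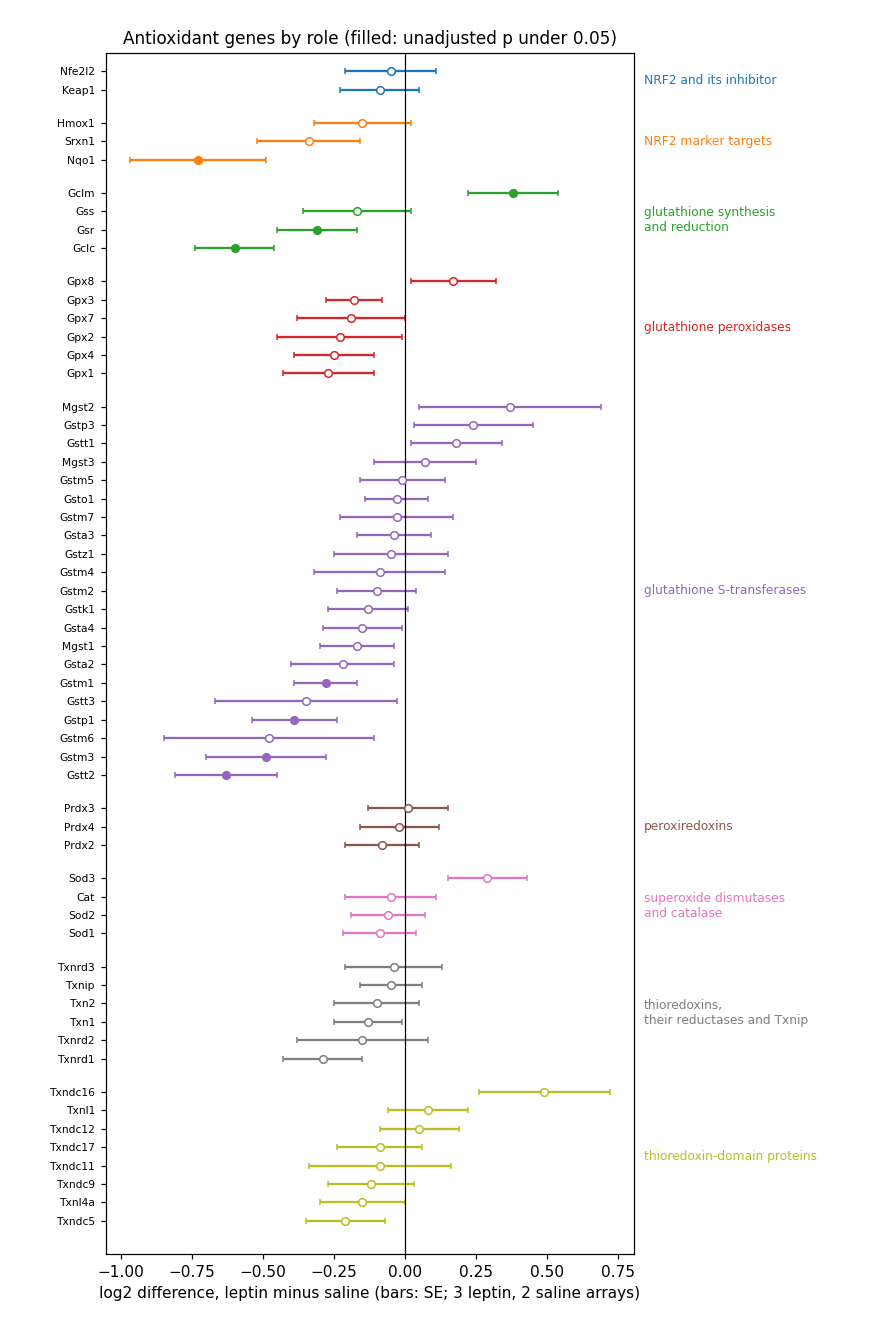
Log2 difference between leptin and saline for the brightest tested probe set of each of 57 antioxidant genes, grouped by role (horizontal axis: leptin minus saline; bars: standard error from limma; 3 leptin arrays and saline replicates 2 and 3; filled points: unadjusted p under 0.05). Points lie left of 0 for 46 genes and right of it for 11, and none passed the adjusted threshold.

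The regulators themselves differed little. Nfe2l2 (Entrez Gene 18024) gave intensities of 2031, 2657 and 3032 after leptin, against 2654 and 2606 for saline replicates 2 and 3. The groups overlapped, and the spread within the leptin group was wider than the distance between groups. Its difference was -0.05 ± 0.16 (log2 difference ± SE, as throughout; limma adjusted p = 1.0). Keap1 (50868) read 822.4, 893.6 and 823.9 with leptin and 927.1 and 879.2 with saline, at -0.09 ± 0.14, again with overlap. Its dimmer probe set read lower on all leptin arrays than on both saline arrays, at -0.16. Since NRF2 is controlled mainly through the stability of its protein, these transcript levels do not measure its activity.

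Among the genes used as markers of NRF2 activity, Nqo1 had the lowest log2 difference of any member gene on its brightest probe set. Nqo1 (18104), the quinone reductase, read 104.0, 181.6 and 161.9 with leptin and 248.0 and 264.1 with saline. Every leptin array was below both saline arrays, although the probe set is dim, between the 30.1th and 54.5th percentile of probe sets on these arrays. The difference was -0.73 ± 0.24, a 1.66-fold lower level on the scale with the pseudocount of 22 (limma adjusted p = 0.97). Saline replicate 1 read 1024, and with all 6 arrays the value was -1.37 ± 0.58. Srxn1 (76650), which repairs over-oxidised peroxiredoxins, read 249.4, 268.5 and 224.2 against 339.9 and 296.4 on its brightest probe set. That is again lower on every leptin array, at -0.34 ± 0.18, and the 4 Srxn1 probe sets lay between -0.34 and -0.20. Hmox1 (15368), the haem oxygenase, read 260.8, 239.7 and 291.6 against 296.0 and 294.0, at -0.15 ± 0.17. The highest leptin array thus lay just under the saline arrays.

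In glutathione synthesis, the subunits of the rate-limiting enzyme lay on opposite sides of 0. Gclc (14629) encodes the catalytic subunit of glutamate-cysteine ligase, and Gclm (14630) the modifier subunit that improves its efficiency. The brighter Gclc probe set was at 1526, 1973 and 1657 after leptin, against 2750 and 2461 after saline. The second Gclc probe set read 1056, 1282 and 1489 against 2172 and 2353. In both, the highest leptin array lay clearly below the lowest saline array. Their differences were -0.60 ± 0.14, 1.52-fold lower, and -0.83 ± 0.16, 1.78-fold lower (limma adjusted p = 0.466 and 0.202). Gclm read 510.5, 498.2 and 453.4 with leptin and 337.3 and 401.7 with saline, so that all leptin arrays lay above both saline arrays. It was at 0.38 ± 0.16, a 1.3-fold higher level (limma adjusted p = 1.0).

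The log2 ratio of Gclc to Gclm within an array was 1.54, 1.94 and 1.82 with leptin and 2.95 and 2.55 with saline. The means were 1.77 ± 0.21 (SD, n = 3) and 2.75 ± 0.28 (SD, n = 2), a difference of -0.98. The exact two-sided permutation p was 0.2, the smallest that 3 against 2 arrays can give, and the pair was chosen after its values were seen. With Gclc lower and Gclm higher on every leptin array, the ratio had to separate the groups. This p was therefore fixed in advance and adds no support. On saline replicate 1 the ratio was 0.43, where both genes were low, at 137.6 and 96.2. With all 6 arrays the brighter Gclc probe set turned to 0.75 ± 1.10, the second was at -0.09 and Gclm at 0.96 ± 0.51.

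On the log2 scale with the pseudocount, 1 member, the second Gclc probe set, met the rule stated by the series, which asks for at least 1.5-fold between means, p under 0.05, and at least 1.5-fold in most array pairs (4 of 6 here). That is 1.1% of the tested members, against 0.234% of all probe sets for this direction, and 0 of 91 against 0.259% for the other. With all 6 arrays (6 of 9 pairs) no member met it, against backgrounds of 0.107% higher and 0.0947% lower. The series does not say on which scale the rule was applied. On untransformed intensities, an alternative added after seeing the data, 2 members met it in the lower direction, the second Gclc probe set and Nqo1 (2.2% of members, against 0.347% of all probe sets), and 0 in the higher (against 0.309%). On the log2 scale, the count also depended on which saline array was left out. Fewer pairs were asked for in those fits, and no share of all probe sets was computed for them. Gss (14854), the next enzyme of the pathway, read 347.1, 468.7 and 304.6 against 423.6 and 407.5. It overlapped between groups, at -0.17 ± 0.19. Gsr (14782), which returns oxidised glutathione to its reduced form, read 688.7, 699.6 and 634.5 against 832.9 and 852.3. All leptin arrays were lower, at -0.31 ± 0.14 (limma adjusted p = 1.0). Its other probe set was at 0.10, with overlapping groups.

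**Figure D3:**
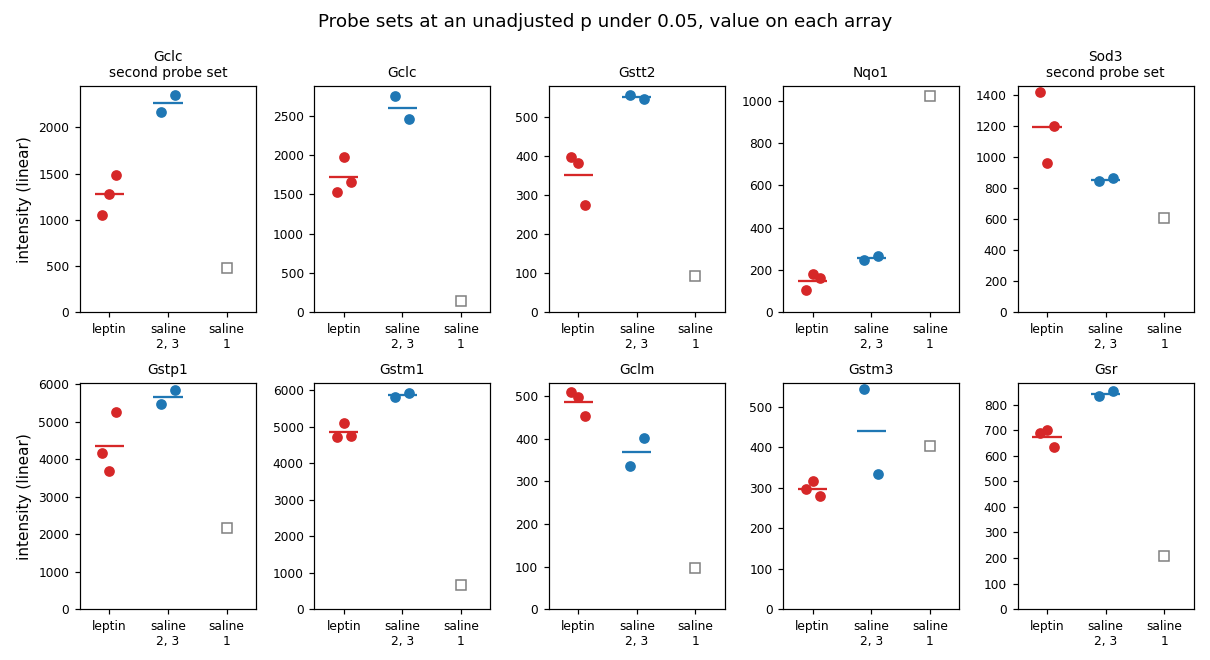
Intensity on each array (linear axis from 0) for the 10 member probe sets at an unadjusted p under 0.05: leptin arrays in red, saline replicates 2 and 3 in blue, each with the group mean as a line, and saline replicate 1 as an open grey square. The leptin points lie below both blue points in 8 panels and above them in Gclm and the second Sod3 probe set, and saline replicate 1 lies far from the other saline arrays in most panels.

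Promoter sequence was examined because NRF2 targets carry antioxidant response elements, and because members differed in direction. RefSeq promoters (build GRCm38.p6, 250 bases before to 50 after the start) were found for 52 of the 60 genes. The core TGACNNNGC on either strand was present in 11 of 68 member promoters, 16.2%, against 12.4% of all 32851 promoters in the table. Counted by gene it was in 21.2% of member genes and 14.0% of all genes. The matches were in Gclm, Gsta3, Gstm5, Gstm7, Mgst1, Nfe2l2, Sod1, Srxn1, Txndc5, Txndc11 and Txnrd1. A match says only that these letters occur in the window, and elements farther upstream are outside it. The 250 bases upstream of the start are shown for Gclm, the higher ligase subunit, and for 3 other genes. On their brightest probe sets these 3 read lower on every leptin array. A core match is in capitals. The windows are chr3:122245307-122245556 on the plus strand, chr8:107403206-107403455 and chr19:4037913-4038162 on the minus strand, and chr10:82858956-82859205 on the plus strand, in the order below.
Gclm: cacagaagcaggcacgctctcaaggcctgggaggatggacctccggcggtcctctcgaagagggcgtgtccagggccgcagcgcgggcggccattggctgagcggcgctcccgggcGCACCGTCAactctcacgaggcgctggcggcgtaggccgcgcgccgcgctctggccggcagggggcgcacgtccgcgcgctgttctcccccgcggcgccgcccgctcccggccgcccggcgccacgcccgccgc
Nqo1: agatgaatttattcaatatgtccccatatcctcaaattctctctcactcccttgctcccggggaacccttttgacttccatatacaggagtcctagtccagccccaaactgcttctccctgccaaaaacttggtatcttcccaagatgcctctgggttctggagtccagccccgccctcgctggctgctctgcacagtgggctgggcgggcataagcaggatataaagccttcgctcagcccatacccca
Gstp1: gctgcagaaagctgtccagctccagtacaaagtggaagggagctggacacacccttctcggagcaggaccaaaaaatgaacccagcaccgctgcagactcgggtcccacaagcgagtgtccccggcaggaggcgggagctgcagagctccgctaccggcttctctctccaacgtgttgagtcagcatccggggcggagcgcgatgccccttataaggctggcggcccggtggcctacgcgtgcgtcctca
Txnrd1: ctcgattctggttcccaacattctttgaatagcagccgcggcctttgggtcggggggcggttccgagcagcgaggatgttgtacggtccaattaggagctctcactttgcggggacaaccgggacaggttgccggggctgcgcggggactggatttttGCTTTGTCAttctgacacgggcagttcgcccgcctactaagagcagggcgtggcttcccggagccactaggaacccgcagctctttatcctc
The match begins 134 bases before the start in Gclm and 92 bases before it in Txnrd1. Of 3 listed Txnrd1 promoters, the 1 that holds a match is shown. In Nqo1 and Gstp1 the core as spelled above does not occur in this window. Only that spelling was searched. A stretch that differs from it by 1 letter, such as tgagtcagc in the Gstp1 window, was not counted, so no match does not mean no element. Members with and without a match to this spelling both read lower, and a member with a match read higher.

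The glutathione S-transferases are the largest family here, with 30 probe sets of 21 genes, and 17 of the 21 genes lay below 0 (median -0.102). In 6 of the 27 tested probe sets all leptin arrays were below both saline arrays (9.66% of all probe sets), and in 0 above (9.92% of all). Gstt2 (14872), a theta class enzyme, read 398.3, 383.2 and 275.5 with leptin against 556.9 and 547.7 with saline. The saline arrays were nearly equal and every leptin array was below them, at -0.63 ± 0.18, 1.55-fold lower (limma adjusted p = 0.834). Gstp1 (14870), the pi class enzyme, read 4163, 3671 and 5250 against 5461 and 5840, at -0.39 ± 0.15. Gstm1 (14862), the main mu class enzyme, read 4731, 5112 and 4740 against 5832 and 5935 on its brightest probe set, at -0.28 ± 0.11. For both genes the groups did not overlap, and the probe sets were bright, from the 97th percentile upward.

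Gstm3 (14864) read 297.4, 316.7 and 281.0 against 545.9 and 334.0, at -0.49 ± 0.21, and at -0.15 without saline replicate 2 and -0.83 without saline replicate 3. The limma adjusted p was 1.0 for Gstp1, Gstm1 and Gstm3 alike. Genes of the mu and pi classes have near-identical neighbours, so their probe sets may share signal. Other probe sets of Gstm1 lay between -0.22 and -0.03. In the alpha class, Gsta2 read 218.7, 205.3 and 258.0 against 261.7 and 272.1, lower on every leptin array, at -0.22 ± 0.18. Gsta3 (14859) read 1286, 1237 and 1323 against 1351 and 1289, at -0.04 ± 0.13. Gsta4 (14860), which clears lipid aldehydes, read 1249, 1342 and 1517 against 1420 and 1628, at -0.15 ± 0.14. Gsta3 and Gsta4 overlapped between groups. Of the remaining mu class genes, Gstm2, Gstm4, Gstm5 and Gstm7 lay at -0.10, -0.09, -0.01 and -0.03 on their brightest probe sets. Gstm6 was at -0.48 ± 0.37, with overlapping groups.

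Mgst1 (56615), the microsomal enzyme, was among the brightest members, at 6578, 6510 and 8256 against 7483 and 8500. The groups overlapped, at -0.17 ± 0.13. The 4 transferase genes above 0 were Mgst2 at 0.37 ± 0.32, Gstp3 at 0.24 ± 0.21, Gstt1 at 0.18 ± 0.16 and Mgst3 at 0.07 ± 0.18, and all overlapped between groups. Gstt3 and Gstm6 varied most within groups among the tested members, with SDs of 0.59 and 0.595 on the log2 scale against a member median of 0.171. Gstt3 was highest in replicate 3 of both groups, at 627.6 (leptin) and 833.9 (saline), against 351.1, 364.4 and 368.2 elsewhere.

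Among the glutathione peroxidases 5 of 6 tested genes lay below 0 (median -0.208). Gpx3 (14778), the secreted plasma form, was the brightest of all members, at the 99.8th percentile or above on all 5 arrays. It read 14312, 15333 and 13154 with leptin and 16216 and 16075 with saline, without overlap, at -0.18 ± 0.10. Gpx1 (14775), the abundant cytosolic form, read 4107, 6177 and 5480 against 6237 and 6233. Its saline arrays were alike and leptin replicate 1 was the lowest, at -0.27 ± 0.16, or -0.10 without that array. Gpx4 (625249), which protects membrane lipids, read 4177, 5272 and 4330 against 4963 and 5922, at -0.25 ± 0.14, with overlap, or -0.12 without saline replicate 3. Gpx8, a form of the endoplasmic reticulum, was at 0.17 ± 0.15, with every leptin array above both saline arrays. Gpx2 and Gpx7 were at -0.23 ± 0.22 and -0.19 ± 0.19. Gpx5 and Gpx6 were below the filter. No glutathione peroxidase reached an unadjusted p under 0.05.

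On their brightest probe sets, the 3 peroxiredoxins among the members, catalase and the intracellular superoxide dismutases lay between -0.09 and 0.01. Prdx1, Prdx5 and Prdx6 had no member probe set and are not covered. Prdx2 (21672), a cytosolic peroxiredoxin abundant in red cells, read 1984, 1834 and 1705 against 1954 and 1927, at -0.08 ± 0.13. Prdx3 of mitochondria and Prdx4 of the endoplasmic reticulum were at 0.01 ± 0.14 and -0.02 ± 0.14. Cat (12359), which breaks down hydrogen peroxide in peroxisomes, read 2748, 2426 and 3320 against 3345 and 2527, at -0.05 ± 0.16. In all of these the groups overlapped. Sod1 (20655) of the cytosol read 3644, 4554 and 3713 against 4158 and 4245, at -0.09 ± 0.13. Sod2 (20656) of mitochondria read 1870, 1983 and 2021 against 1882 and 2227, at -0.06 ± 0.13. These also overlapped. A dimmer probe set of each, at -0.22 for Sod1 and -0.36 for Sod2, was lower on every leptin array.

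Sod3, the extracellular superoxide dismutase bound to the matrix of vessel walls and airways, was the dismutase on the other side of 0. Sod3 (20657) read 4282, 3813 and 3321 with leptin and 3348 and 2864 with saline on its brightest probe set, at 0.29 ± 0.14 with slight overlap, or 0.18 without saline replicate 3. The second Sod3 probe set was at 1419, 961.2 and 1205 against 843.8 and 866.6, with every leptin array above both saline arrays. It was at 0.46 ± 0.17, 1.37-fold higher (limma adjusted p = 1.0). With all 6 arrays these probe sets were at 1.59 ± 1.07 and 0.61 ± 0.28. Fibroblast and smooth muscle markers were read on the same arrays, and none passed the adjusted threshold. The summed intensity of 5 fibroblast markers ran from 20494 to 23488 with leptin and from 15537 to 18619 with saline. Of the 5, 4 lay above 0 and 3 were at an unadjusted p under 0.05. Those 3 were Col1a1, Mfap4 and Col1a2, at 0.60, 0.59 and 0.53. Pdgfra and Tcf21 differed little, at 0.09 and -0.05, so the markers of this list did not move together. The 4 smooth muscle markers summed to between 8124 and 9649 against 7265 and 7302, with 4 of 4 above 0 and 2 at an unadjusted p under 0.05. Their part in the Sod3 values was not tested.

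In the thioredoxin system all 6 genes lay below 0 on their brightest probe sets, with a median of -0.116. Txnrd1 (50493), the cytosolic selenium-containing reductase, read 1089, 947.9 and 1136 with leptin and 1299 and 1282 with saline. All leptin arrays were lower, at -0.29 ± 0.14. Txn1 (22166), its main substrate, read 4894, 5317 and 5047 against 6104 and 5082. The groups overlapped, at -0.13 ± 0.12. Txn2 (56551), the mitochondrial form, read 694.6, 787.1 and 726.8 against 851.7 and 731.5, at -0.10 ± 0.15, and its other probe sets lay on both sides of 0, at 0.35 and -0.30. Txnrd2 (26462) was dim, at 183.6, 127.9 and 131.9 against 166.2 and 163.9, and at -0.15 ± 0.23. Txnip (56338), which binds thioredoxin and responds to glucose, read 6044, 6157 and 7038 against 6383 and 6854. It differed by -0.05 ± 0.11, with overlap, and its other probe set by -0.01.

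Of the other thioredoxin-domain proteins, 5 of 8 tested genes lay below 0, and none reached an unadjusted p under 0.05. Txndc16 had the highest value of any member gene, at 0.49 ± 0.23, with 292.3, 254.2 and 443.9 against 241.6 and 205.4. All leptin arrays were higher there, leptin replicate 3 by the widest margin. Txndc5, a protein disulfide isomerase, was at -0.21 and 0.16 on its probe sets. Of the 25 member genes with several tested probe sets, 17 had the same sign on all of them. The 13 probe sets below the filter were the only ones of Gpx5, Gpx6 and Txndc8 and 10 further probe sets of other genes.

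Genes of the surrounding pathways were examined by lists of non-members, and none of their genes passed the adjusted threshold. Of 11 tested enzymes that are also known NRF2 targets, 9 lay below 0 (median -0.165, against -0.00731 for all genes tested). An unadjusted p under 0.05 was reached by 4 lower and 0 higher genes, against 2.02% and 2.26% of all genes tested. Osgin1, an oxidative stress response gene, read 149.8, 198.3 and 261.1 with leptin and 351.5 and 376.0 with saline, at -0.81 ± 0.22. Cbr3, a carbonyl reductase, read 430.0, 543.0 and 489.9 against 732.8 and 685.8, at -0.53 ± 0.16. In both, all leptin arrays lay below both saline arrays. The other two, named after their values were seen, were Blvrb, the biliverdin reductase also found in red cells, at -0.56 ± 0.17, and the aldo-keto reductase Akr1b8 at -0.47 ± 0.16. The limma adjusted p values of these 4 genes were 0.735, 0.862, 0.914 and 1.0.

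The enzymes that supply NADPH, the source of electrons for both systems, had 6 of 7 genes below 0 (median -0.0609). Taldo1 and Pgd of the pentose phosphate pathway were at -0.36 ± 0.14 and -0.28 ± 0.12, lower on every leptin array. In glutathione turnover 7 of 11 lay below 0, led by Slc3a2, a subunit of amino acid exchangers, at -0.28 ± 0.13 and Oplah at -0.32 ± 0.16. Of 7 glutaredoxins, methionine sulfoxide reductases and glyoxalases 6 lay below 0, led by Glrx at -0.40 ± 0.19 and Hagh at -0.25 ± 0.15. These 4 genes did not reach an unadjusted p under 0.05.

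NRF2 partners and regulators had 6 of 10 below 0 (median -0.0318), with Bach2, a repressor of the Bach family best known in lymphocytes, at 0.38 ± 0.16 and Sqstm1 at -0.16 ± 0.14. Selenoproteins and their synthesis had 4 of 10 below 0 (median 0.0294), with Pstk at 0.39 ± 0.26 and Sephs1 at -0.35 ± 0.26. Metallothioneins and copper carriers had 3 of 6 below 0, with Mt2 at -0.23 ± 0.20 and Slc31a1 at -0.16 ± 0.14. Oxidant-producing enzymes had 3 of 10 below 0 (median 0.0839). The NADPH oxidase subunits of phagocytes Ncf1 and Ncf4 were at 0.51 ± 0.24 and 0.48 ± 0.22, with every leptin array above both saline arrays and no unadjusted p under 0.05.

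**Figure D4:**
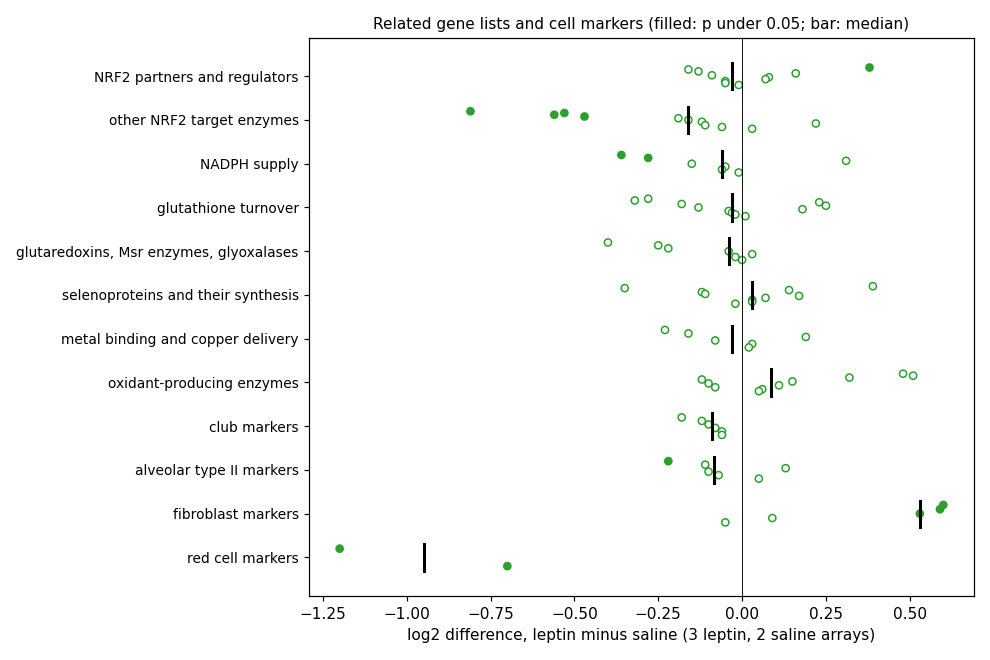
Log2 difference between leptin and saline for the genes of 8 related lists and 4 cell marker lists (horizontal axis: leptin minus saline, 3 leptin arrays and saline replicates 2 and 3; filled points: unadjusted p under 0.05; black bars: list medians). Other NRF2 target enzymes have 9 of 11 points below 0, and oxidant-producing enzymes 3 of 10.

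Markers of other cell types were read on the same arrays. All 6 club cell markers lay below 0 (median -0.0914) with 0 at an unadjusted p under 0.05, and with summed intensities of 103857 to 114394 with leptin and 117825 to 118192 with saline. For the 6 alveolar type II markers tested, 4 lay below 0, 1 of them at an unadjusted p under 0.05, and the sums were 82668 to 91809 against 92977 to 93510. Of 5 endothelial markers 4 lay above 0, 1 at an unadjusted p under 0.05, with sums of 14137 to 15796 against 13770 to 13813. The ciliated, macrophage, neutrophil and B cell markers tested, 3 of each, all lay above 0, as did the 2 T cell markers. Above 0 were also 3 of 6 alveolar type I and 2 of 3 adipocyte markers. Of cardiac muscle markers 4 of 5 lay below 0, as did the 1 liver marker. In these lists 1 B cell, 1 T cell and 1 adipocyte marker had an unadjusted p under 0.05. Alas2 and Slc4a1, the red cell markers tested, were at -1.20 ± 0.15 and -0.70 ± 0.25, with sums of 3106 to 4199 against 7666 to 8944. Alas2 was the only gene of any list to pass (limma adjusted p = 0.0496), and this call depended on the processing. With the replicate block, without a variance trend, or with dim probe sets kept, nothing on the array passed. The same held for quantile normalization, scaling to equal medians and the smaller pseudocount. With array weights or the larger pseudocount 7 probe sets passed, and 6 with the filter at 50%. With all 6 arrays Alas2 lay at 1.12, and saline replicate 1 read 42.2. Of the markers on the array, Hba-a1, Marco, Siglecf, Cd3e, Apoa1 and Ttr were below the filter and not tested. The part of these cell types in the antioxidant values was not tested.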

How the data were processed

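The authors deposited a single table holding a linear intensity for each probe set and array. The sources used here do not name the software or summarisation. Per the labels' protocols, RNA was amplified in repeated rounds before labelling. The trimmed mean of each array (lowest and highest 2% left out) lies between 500.1 and 500.14, so arrays had been scaled to a common mean.

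After 64 control probe sets were left out, a pseudocount of 22, the 10th percentile of the table, was added before taking log2, so changes of dim probe sets are understated. After removal of the dimmest 30%, judged by their mean, 15838 probe sets entered the fit by limma (version 3.58.1, under R 4.3.3; two-sided, moderated variances with an intensity trend), adjusted over all of them. Precision is limited by how few arrays there are. The fit was run on simulated data with independent noise and with changes larger than any member difference of the main comparison. It therefore says nothing on changes of the size seen here. Symbols came from the platform annotation, and RefSeq by Entrez Gene ID changed 0 of the members' symbols.

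Members and gene lists were chosen with earlier results of these data known. Values per array are given for members at an unadjusted p under 0.05 and for a list of core genes. Prdx1 and Prdx6 of that list had no member probe set. From each related list, genes past the adjusted threshold or else the 2 with the smallest p are named.

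Deviations from group means correlated at 0.103 to 0.144 between arrays that share a replicate number, over the tested probe sets. Between arrays with different numbers the correlations were -0.147 to 0.0491. Over all probe sets the same-number correlations were 0.0609 to 0.111. Saline replicate 1 was part of the saline mean, so it also shapes the deviations of saline replicates 2 and 3. These correlations are therefore not independent of each other and cannot settle whether the numbers mark pairs. The labels state no pairing. Alternatives were quantile normalization, a common median, other pseudocounts (1 and 79.9) and filters, the replicate block, no variance trend, array weights and leaving out each array.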

Additional observations from a re-analysis of the deposited data

How the results depend on the processing

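No member passed the adjusted threshold under any alternative on 5 or 6 arrays, including an adjusted p under 0.10. With 5 arrays, the 10 members at an unadjusted p under 0.05 became 0 higher and 0 lower with all 6 arrays, and the lower count was 5 without a variance trend (background 1.92%). Leaving out 1 more array gave 5 to 9 lower (backgrounds 1.28% to 2.42%) and 1 to 3 higher (2.26% to 2.77%). The members' median ran from -0.111 to -0.054 over these fits and was 0.147 with all 6 arrays, and 36 to 46 genes lay below 0 against 20 with all 6 arrays. When a saline array is left out, the lone saline array is assumed to vary like the leptin arrays. The count of members meeting the rule of the series varied when 1 more array was left out. Fewer pairs were asked for there, and no share of all probe sets was computed. The rule gave 0 members with all 6 arrays and 2 on untransformed intensities, a setting chosen after seeing the data. With the replicate block, 10 members were lower and 2 higher at an unadjusted p under 0.05, with 43 genes below 0. The block changed no adjusted call among the members, and Gclm had an unadjusted p of 0.0661 with it, against 0.0347 without.

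Of 49 named genes and probe sets, 28 changed sign with all 6 arrays. The log2 differences were then 0.75 for Gclc, 0.14 for Gstt2, 0.07 for Gstp1, 0.76 for Gstm1, 0.32 for Gsr, 0.36 for Nfe2l2, 0.05 for Hmox1, 1.19 for Txn1, 0.03 for Txnrd2, 0.78 for Txnip, 1.11 for Cat, 1.72 for Sod1, 0.47 for Sod2, 1.37 for Gpx1, 1.12 for Gpx3, 1.99 for Gpx4, 0.43 for Prdx2, 1.52 for Gsta3, 1.18 for Gsta4 and 0.60 for Mgst1. Among the related genes they were 0.69 for Sqstm1, 0.98 for Taldo1, 1.13 for Pgd, 0.78 for Slc3a2, 0.29 for Oplah, 0.30 for Glrx, 0.04 for Slc31a1 and 0.27 for Blvrb. These fits differ from the others in that saline replicate 1 is included. Nfe2l2 was also at 0.11 with the replicate block. Leaving out 1 more array moved Nfe2l2 from -0.18 to 0.11, Txn1 from -0.26 to 0.00, Txn2 from -0.21 to 0.01, Txnip from -0.12 to 0.00, Cat from -0.25 to 0.15, Sod2 from -0.18 to 0.06, Pstk from -0.07 to 0.85 and Mt2 from -0.49 to 0.04. Without saline replicate 2, Ncf4 was at 0.21, Glrx at -0.20, Hagh at -0.12 and Akr1b8 at -0.28. Of 451 values under the remaining settings, 450 kept their sign and call. Many of these could not change sign, since other filters and no variance trend leave the log2 difference of a probe set as it is. None of the named genes passed in the main fit. Their call was thus also fixed in the settings where nothing on the array passed.

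On 6 arrays, array weights gave 3 higher and 7 lower members (3.43% and 2.76% of all probe sets) and a median of -0.085. A common median gave 1 lower member (0.227% of all probe sets), and moved the median of all tested probe sets from 0.0219 to 0.168 and that of the members to 0.292. Leaving out 1 array gave 0 to 2 higher, 0 to 8 lower (2 and 8 without saline replicate 1, backgrounds 2.61% and 1.98%) and medians from -0.091 to 0.277.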
